A study of Mus musculus with 98 samples.

Results

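This comparison concerned the DNA ends that the RAG recombinase left at a chromosomal recombination substrate in mouse pre-B cells with and without the histone variant H2AX (gene H2ax). Its members were chosen by label: every library of that break from cells lacking DNA ligase IV (gene Lig4) alone and from cells lacking both ligase IV and H2AX, apart from a separate de novo PCR that was not used. They make up 24 of the 98 read files of the series, or 12 of its 49 libraries and 4 of its 17 groups. The read files are paired, and each group pools 3 libraries in 1 table.

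The assay, hairpin capture of DNA end structures (HCoDES), seals the strands of a broken end to each other with a single-strand DNA ligase, treats the DNA with bisulfite so that the resulting hairpin can be amplified, and sequences the PCR product from both sides. Each distinct pair of strand end points is called a structure here, and every structure has a read count. All cells were transformed by the Abelson kinase, arrested in G1, and without ligase IV, so that broken ends stay unjoined. The controls were Ligase IV -/- Line A (CJ 1) and Line B (CJ 7), and the cells that also lacked H2AX were Line 5 (CJ 48) and Line 8 (CJ 148). A group is thus a single cell line, and the replicate in every comparison was the line, with n = 2 per genotype. The labels do not say whether the lines of a genotype came from separate mice. Titles give 48 h for lines A, B and 8 and no time for line 5, and of these 4 lines only line B has the tag shNT in its titles, left unexplained in the labels. Lines A, B and 5 were sequenced in run set 4 and line 8 in run set 2. The tables hold no gene expression, so neither the genotypes nor the cell type could be checked against markers.

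RAG cuts beside recombination signals and leaves a hairpin-sealed coding end and a blunt signal end. The coding hairpin is opened by the nuclease Artemis before end joining, in which ligase IV makes the final seal. H2AX is a variant of histone H2A that kinases such as ATM phosphorylate on both sides of a double-strand break. The phosphorylated form gathers repair factors such as MDC1 and 53BP1, and it is known in G1 lymphocytes for guarding unjoined ends from the nuclease cofactor CtIP. The tables do not state whether the substrate ends are coding or signal ends.

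The tables held 330683 reads in line A, 128122 in line B, 76325 in line 5 and 72923 in line 8, spread over 895, 714, 588 and 700 structures. Only structures with 2 reads or more are listed. Loss was counted in nucleotides (nt) from position 2, the lowest listed for either strand, and resected ends were those missing 10 nt or more of the 5'-ending strand. An end that stops before that position would also read as no loss. Losses could be followed up to 206 or 207 nt on the 5'-ending strand. The average insert size listed by the authors, in an unstated unit, was 405 and 426 in lines A and B and 188 and 266 in lines 5 and 8, so it moved with genotype, as did read depth. Genotype and these properties of the libraries cannot be told apart. The smallest p that an exact permutation test of 2 lines against 2 can give is 0.3333, so no p separates the genotypes. A difference was instead called when both lines of a genotype lay on the same side and the smallest gap between genotypes exceeded the largest gap within a genotype. By this rule 26 of the 58 measures compared separated the genotypes and 32 did not. Values are percent of a table's reads, so they give the make-up of the captured ends and not the number of breaks.

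Ends that kept most of both strands were common in the controls and scarce without H2AX. The share of resected ends was 56.0% in line A and 57.9% in line B, against 96.0% in line 5 and 93.0% in line 8. The means were 56.95% ± 1.29 and 94.5% ± 2.12 (SD, n = 2 lines each). The smallest gap between genotypes was 35.1 percentage points and the largest within them 2.99. Within run set 4, which leaves out line 8, the means differed by 39.05 points. Ends with under 10 nt lost from both strands made up 41.3% and 37.9% of reads in lines A and B and 3.25% and 6.41% in lines 5 and 8. In the KpnI control, where an enzyme makes a known end, 99.2% of 307425 reads lay in the structure with its 4-nt 3' overhang and 0.320% had a 5'-ending strand 10 nt or more further in (exact Clopper-Pearson 95% interval 0.301 to 0.341%). That interval, like all counting intervals here, covers counting error only, because PCR reads are not independent molecules. By its label the KpnI library is mixed with other recombination substrate sequences, to be pulled out by a specific primer. When each structure counted once whatever its reads, the resected share was 84.9%, 82.6%, 88.1% and 87.3% in lines A, B, 5 and 8. The difference then was 3.92 points in place of 37.6, with the lines still separated by a gap of 2.37 points against 2.28 within genotypes. Without each table's 10 most abundant structures, which in the controls lie mostly near the break, the shares were 77.5%, 77.8%, 95.0% and 93.2% and the difference was 16.4 points. Distinct resected structures were thus most of the list in all 4 lines. At this threshold the genotypes differed mainly in the share of reads that resected structures held as a class. Which structures these were also differed, within genotypes as well as between them.

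**Figure D1:**
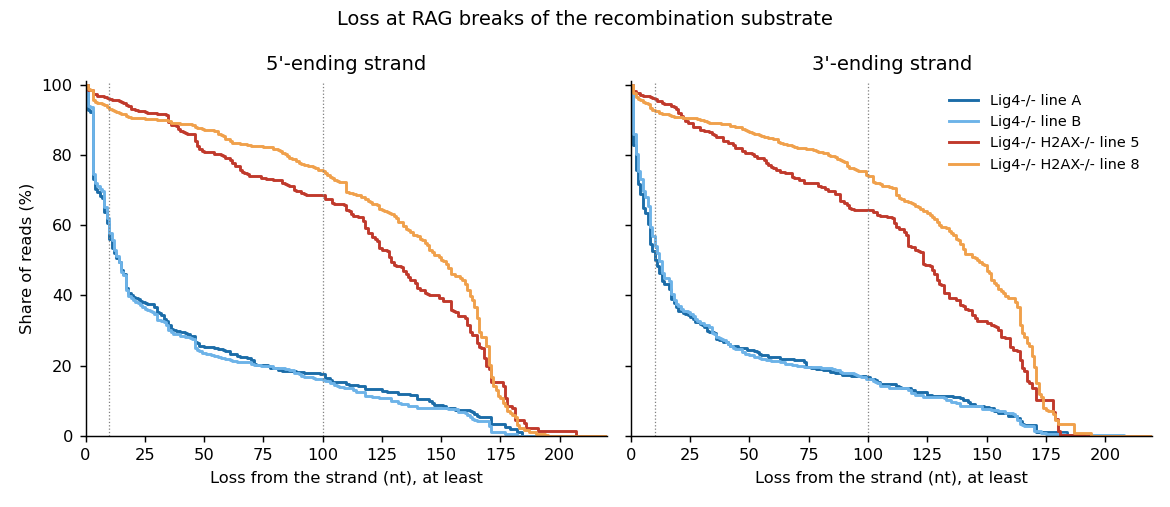
Share of reads (%) that had lost at least a given length (nt) from the 5'-ending strand (left) and the 3'-ending strand (right), with 1 curve per cell line and dotted lines at 10 and 100 nt. The curves of Lig4-/- lines A and B lie close together and drop steeply near the break, and those of the H2AX-deficient lines stay above 90% at 10 nt and above 60% at 100 nt on both strands.

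The reach of the loss differed as strongly as its presence. Ends missing 100 nt or more of the 5'-ending strand held 17.5% and 15.9% of reads in lines A and B and 68.6% and 75.4% in lines 5 and 8, a ratio of the means of 4.32. The smallest gap was 51.1 points against 6.78 within genotypes. Among resected ends alone, 31.2% and 27.4% had lost 100 nt or more in lines A and B, and 71.5% and 81.1% in lines 5 and 8. The median loss of resected ends was 45 and 38 nt in the controls and 133 and 153 nt in the H2AX-deficient lines. Counted once per structure, ends at 100 nt or more were 29.3% and 27.9% of structures in lines A and B and 43.03% and 53.9% in lines 5 and 8, still separated. Among ends with under 100 nt lost, where the PCR products differ less in length, the resected share was 46.7% and 49.9% in lines A and B and 87.3% and 71.6% in lines 5 and 8. That restriction was chosen after seeing the data.

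Along the distance from the break the genotypes diverged at both ends of the range and overlapped from 20 to 99 nt taken as a whole. Losses of 10 to 19 nt held 16.6% and 19.3% of reads in lines A and B and 2.88% and 2.59% in lines 5 and 8, so the short resections of control cells were scarce as well. Losses of 20 to 99 nt held 21.9%, 22.7%, 24.5% and 15.01% in lines A, B, 5 and 8, and the lines overlapped. Within that stretch, losses of 20 to 39 nt held 9.81% and 10.05% in the controls and 6.41% and 1.54% without H2AX. Losses of 80 to 99 nt held 1.76% and 3.44% in the controls and 4.19% and 6.16% without H2AX. Neither window overlapped and neither passed the gap rule, whereas the windows of 40 to 59 and 60 to 79 nt overlapped. Losses of 100 to 149 nt held 8.61% and 7.94% in the controls and 29.5% and 25.3% without H2AX. Losses of 150 to 199 nt held 8.90% and 7.89% in the controls and 37.7% and 50.1% without H2AX. Within that last stretch the window from 160 to 179 nt alone held 25.6% of line 5 and 37.2% of line 8, against 5.50% of line A and 5.99% of line B. Line 8 exceeded line 5 there, and line 5 exceeded line 8 between 20 and 39 nt, at 6.41% against 1.54%. From 200 nt the counts were thin, at 1.43% in line 5 and at most 0.0384% in lines A, B and 8.

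Both strands were lost together. Ends short of 10 nt or more on each strand held 47.3% and 49.7% of reads in lines A and B and 95.1% and 91.9% in lines 5 and 8. Ends with 10 nt or more lost from the 5'-ending strand and under 10 nt from the other fell from 8.78% and 8.19% in lines A and B to 0.862% and 1.07% in lines 5 and 8. Ends with only the 3'-ending strand resected also fell, from 2.70% and 4.26% to 0.744% and 0.579%. The 3'-ending strand reached the origin in 17.2% and 14.1% of control reads and in 1.95% and 2.29% of reads without H2AX. Among resected ends an intact 3'-ending strand was present in 3.39% and 2.64% of control reads and in 0.111% and 0.226% of H2AX-deficient reads. In all 4 lines, then, nearly all resected ends had lost sequence from the 3'-ending strand too, and the exceptions were fewer without H2AX. Without each table's 10 most abundant structures, those 4 shares were 0.465%, 0.368%, 0.141% and 0.259%, and the gap of 0.109 points no longer exceeded the 0.118 points within genotypes. In both controls the structures removed include a 16-nt 3' overhang with an intact 3'-ending strand, described with the single structures.

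**Figure D2:**
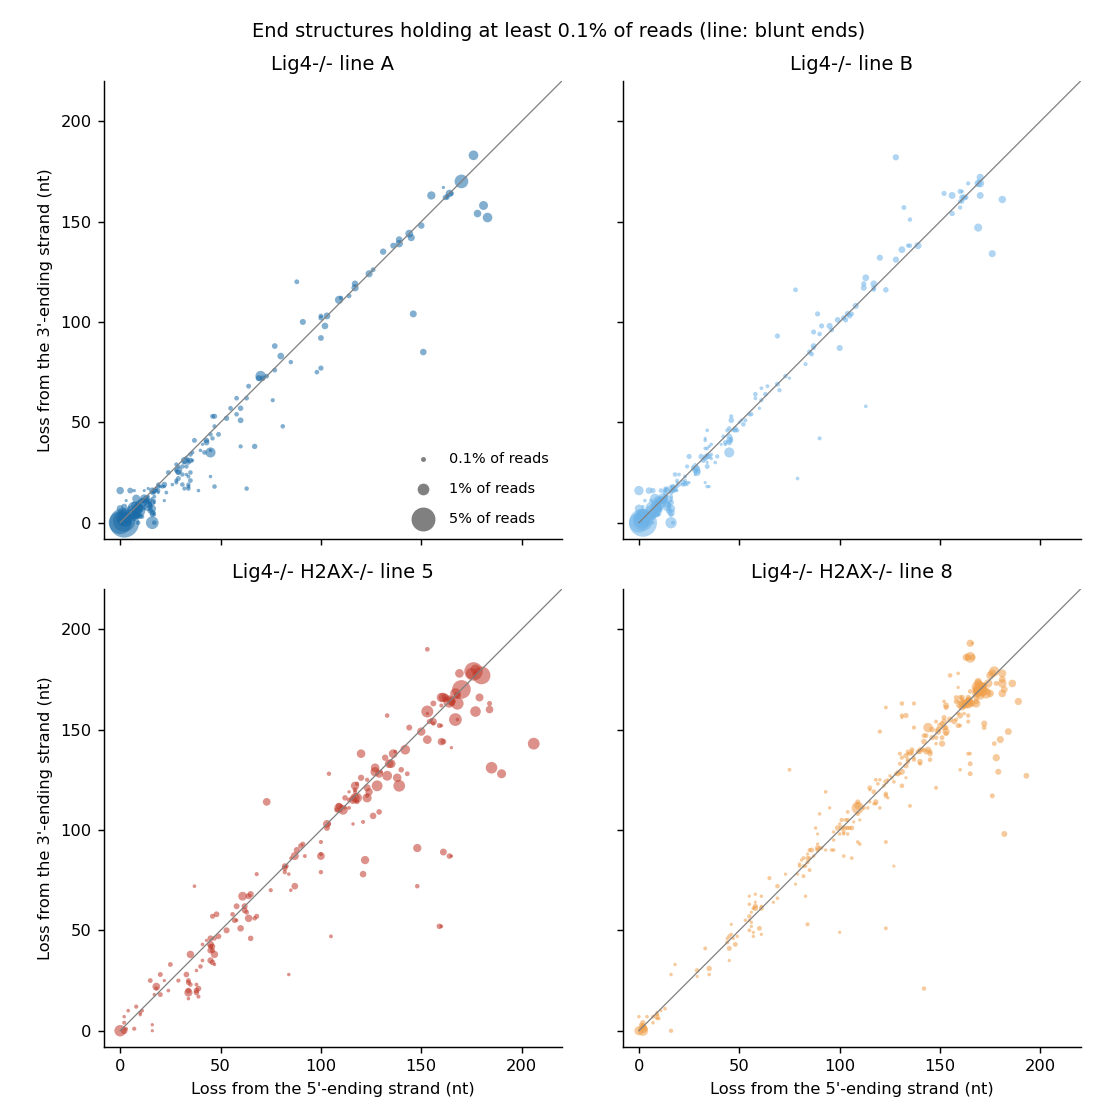
Loss from the 5'-ending strand (nt, horizontal) against loss from the 3'-ending strand (nt, vertical) for each structure with at least 0.1% of a line's reads. Dot area is proportional to the share of reads and the diagonal marks blunt ends. The large dots sit at the origin in lines A and B and around 160 to 180 nt in lines 5 and 8, and in all 4 lines most dots hug the diagonal.

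The distance between the strand ends changed less than their position. Among resected ends the median distance was 4 and 3 nt in lines A and B and 5 and 3 nt in lines 5 and 8. Strand ends lay within 4 nt of each other in 56.5%, 61.0%, 49.98% and 59.9% of resected reads in lines A, B, 5 and 8, and the lines overlapped. Over all reads, overhangs of 20 nt or more on either strand held 5.90% and 4.00% of all reads in lines A and B and 11.7% and 12.5% in lines 5 and 8. That difference was 7.16 points by reads and passed. With each structure counted once it was -2.03 points, where the lines overlapped. Without each table's 10 most abundant structures it was 4.98 points, and the gap of 2.48 points was smaller than the 3.09 points within genotypes. Among resected ends, 3' overhangs of 20 nt or more held 9.97%, 4.59%, 10.6% and 7.78% in lines A, B, 5 and 8. The 5' overhangs of that length held 0.535%, 2.30%, 1.52% and 5.69% of resected ends. On each side taken alone the lines overlapped there.

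Among the overhang classes of all ends, short 3' overhangs and blunt ends separated the genotypes, and both fell. Overhangs of 1 to 4 nt on the 3' side held 39.8% and 38.4% of reads in lines A and B and 21.3% and 23.1% in lines 5 and 8. The 1-nt 3' overhang by itself held 14.8% and 14.3% against 7.80% and 7.84%. The fall was present within resected ends, where 3' overhangs of 1 to 4 nt held 28.0% and 31.6% in lines A and B and 21.22% and 21.19% in lines 5 and 8. With each structure counted once the lines overlapped in both settings and the direction reversed. The differences were then 1.38 points over all ends and 0.617 points over resected ends, higher without H2AX. Blunt ends fell from 18.5% and 18.9% to 9.31% and 12.9%. With each structure counted once the lines overlapped in this class as well, and the difference was 0.0353 points, no longer a fall. Among resected ends blunt ends held 14.4%, 13.5%, 8.21% and 12.3% in lines A, B, 5 and 8, a gap of 1.16 points, smaller than the 4.10 points between the H2AX-deficient lines.

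Overhangs of the 5' type were more frequent in both H2AX-deficient lines, but the lines of each genotype differed too much for a call. They held 19.5% and 27.3% of reads in lines A and B and 32.8% and 41.6% in lines 5 and 8, with a gap of 5.49 points between genotypes and 8.79 within. Among resected ends the values were 20.9%, 29.6%, 32.6% and 42.5%, with a gap of 2.98 points against 9.90. When a difference of 1 nt was called blunt, 5' overhangs held 17.1%, 22.96%, 29.99% and 35.2%, and the gap of 7.03 points exceeded the 5.89 points within genotypes. The short class of 1 to 4 nt gave most of it, at 12.9% and 15.6% in lines A and B and 20.6% and 25.9% in lines 5 and 8, a gap of 4.95 points against 5.37. The 5' overhangs of 5 nt or more held 6.62%, 11.7%, 12.2% and 15.7% in lines A, B, 5 and 8, so that lines B and 5 were 0.537 points apart. Without line B the 5' overhang share over all ends differed by 17.7 points, and without line 5 it differed by 18.2 points. Each leaves a genotype with 1 line, whose spread is unknown.

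Overhangs of 10 nt or more on the 3' side were frequent in line 5 and not in line 8, so the genotypes overlapped. They reached 10 nt or more in 12.4% and 7.76% of reads in lines A and B, in 25.1% in line 5 and in 11.2% in line 8. Line 8 lay between the controls, and without it the difference was 14.97 points, with line 5 alone for its genotype. The class of 10 to 19 nt showed this most clearly, with 14.9% in line 5 and 3.98% in line 8, below both controls at 6.84% and 5.10%. From 20 nt on the genotypes did not overlap over all ends, at 5.59% and 2.66% in lines A and B and 10.2% and 7.24% in lines 5 and 8. The gap of 1.65 points was smaller than the 2.93 points within genotypes. Among resected ends they overlapped, with line 8 at 7.78% between lines A and B at 9.97% and 4.59%. The 90th percentile of 3' overhang length was 17 and 13 nt in lines A and B, 54 nt in line 5 and 33 nt in line 8. Line 5 also had the shortest listed insert size, and no time is given in its titles; the part of either in this difference was not tested.

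**Figure D3:**
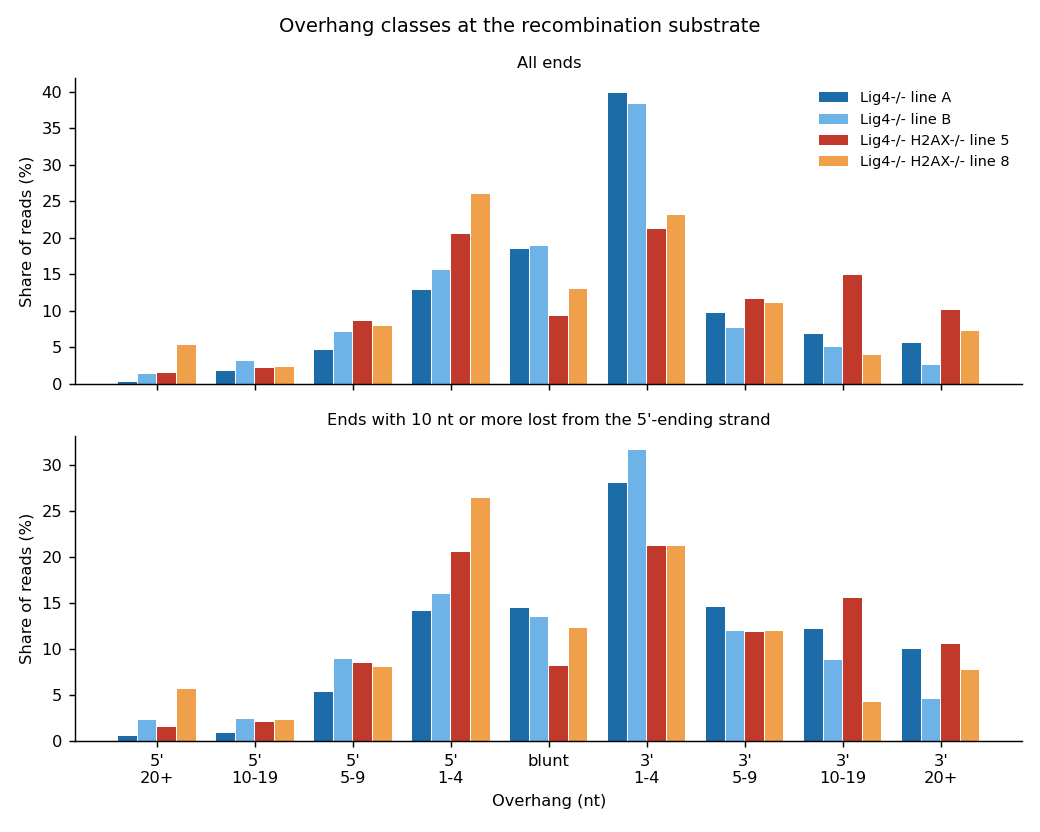
Share of reads (%) in each overhang class (nt, 5' overhangs left, 3' overhangs right) for all ends (top) and for ends with 10 nt or more lost from the 5'-ending strand (bottom), with 1 bar per cell line and no error bars, since each table pools its libraries. The bars for 3' overhangs of 1 to 4 nt are lower in both H2AX-deficient lines in both panels, and the bar for 3' overhangs of 10 to 19 nt is high in line 5 alone.

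Near the break the controls used a small set of positions that held few of all reads in the H2AX-deficient lines, where such ends were scarce. The 5'-ending strand stopped 2 nt in from the origin in 19.3% and 19.2% of reads in lines A and B and in 0.968% and 2.81% in lines 5 and 8. A stop at 1 nt was rare everywhere, at 0.437%, 0.219%, 0.0812% and 0.259%. Further in, a loss of 7 nt held 4.04% and 4.71% of control reads against 0.312% and 0.472%, and a loss of 9 nt held 4.66% and 4.25% against 0.0576% and 0.676%. Line 5 lay well below line 8 at the last of these, and both lay below the controls. Ends with under 10 nt lost from the 5'-ending strand were also taken alone, whatever the other strand had lost. Among them, 5' overhangs of 1 to 4 nt were more frequent without H2AX. These held 11.4% and 15.1% in lines A and B and 21.1% and 19.3% in lines 5 and 8, a gap of 4.17 points against 3.68. Those of 5 to 9 nt held 3.55%, 4.79%, 11.4% and 7.00%, and the gap of 2.21 points was smaller than the 4.37 points within genotypes. Lines 5 and 8 were less alike in the short 3' overhangs of 1 to 4 nt. Of the same ends these made up 54.9% and 47.7% in lines A and B, 22.2% in line 5 and 48.6% in line 8. Blunt ends made up 23.7%, 26.4%, 35.6% and 21.4% of the same ends in lines A, B, 5 and 8.

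Single structures showed the same division. Of the 727 structures with at least 0.1% of the reads of some line, 150 (20.6%) had lower shares in both H2AX-deficient lines than in both controls, and 68 (9.35%) had higher shares. The lower set held 68.5% and 65.1% of reads in lines A and B and 4.90% and 8.19% in lines 5 and 8. The higher set held 3.32% and 0.446% in lines A and B and 28.5% and 17.9% in lines 5 and 8. The sets were chosen on these shares, so the sums describe them and test nothing. Structures in neither set held 61.7% and 66.1% of the H2AX-deficient reads, and 22.9% and 28.6% of control reads. A gap larger than the spread within genotypes was found for 72 of the 150 lower structures and for 14 of the 68 higher ones.

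Where a structure lay went with its direction. Of 53 structures with 0 to 9 nt lost from the 5'-ending strand, 46 were lower (86.8%) and 3 higher. Of 70 with 10 to 19 nt lost, 55 were lower and 1 was higher. In the middle zone of 20 to 99 nt, 43 of 262 were lower and 15 higher. Of 180 structures with 100 to 149 nt lost, 24 were higher (13.3%) and 4 lower, and of 162 beyond that, 25 were higher (15.4%) and 2 lower. The higher share beyond 100 nt stood only modestly above the 9.35% over all structures. The lower share near the break was far above the 20.6% over all. Structures were counted for their share in any line, however, and few H2AX-deficient reads lay near the break. Structures there could thus enter mainly through the controls, where their shares were high. The zone counts therefore describe the structures and test nothing.

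The leading control structure kept the whole 3'-ending strand and missed 2 nt of the 5'-ending strand, which leaves a 2-nt 3' overhang. It held 9.07% and 8.06% of reads in lines A and B and 0.469% and 1.09% in lines 5 and 8, an 11.01-fold lower mean. The end without loss on either strand held 5.32% and 3.97% against 1.36% and 0.858%, a 4.18-fold lower mean. It was thus retained better than the leading structure and became the most abundant structure near the origin in line 5. The blunt end with 7 nt lost from both strands fell from 1.90% and 2.35% to 0.0210% and 0.160%, a 23.4-fold lower mean. The blunt end with 2 nt lost from both strands held 2.51% and 3.68% against 0.0223% and 0.344%.

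A 16-nt 3' overhang with an intact 3'-ending strand was the only long-tailed structure among the 10 largest falls. It held 1.66% and 1.32% of reads in lines A and B and 0.106% and 0.193% in lines 5 and 8. Its 5'-strand position, 16 nt from the origin, was the most used position of resected ends in both controls, with 4.10% and 4.22% of all reads over all its structures. In lines 5 and 8 that position held 0.571% and 0.628% and ranked 60 and 45. The 10 largest falls were chosen on these shares, so their count under the gap rule describes them and tests nothing. Of them, 9 separated the genotypes. The exception was the 3-nt 3' overhang whose 5'-ending strand missed 9 nt, at 2.03% and 1.06% against 0.0157% and 0.108%, because lines A and B differed by 0.966 points. Other structures with an intact 3'-ending strand and up to 6 nt lost from the other were minor. At a 5'-strand loss of 4 nt the share was 0.202% and 0.170% against 0.00524% and 0.0398%. At 5 nt it was 0.0798% and 0.0492% in the controls, and the structure was not listed in lines 5 and 8. At 1 nt it was 0.247%, 0.131%, 0.00786% and 0.0878% in lines A, B, 5 and 8. At 6 nt it was 0.0892% and 0.00156% in lines A and B, with none listed in lines 5 and 8. Neither the 1-nt nor the 6-nt structure separated the genotypes, and the 3-nt structure was listed in no line.

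None of the 10 largest rises, chosen in the same way, separated the genotypes by the rule. The blunt end 170 nt in from the origin led both H2AX-deficient tables, with 3.56% in line 5 and 2.12% in line 8. It held 1.91% in line A and 0.00702% in line B, so the controls differed from each other by 1.91 points, more than the gap of 0.202 points between genotypes. A 5-nt 3' overhang at 168 nt held 1.56% and 0.691% in lines 5 and 8, 0.000907% in line A, and was not listed in line B. At 109 nt a 5' overhang of 2 nt held 0.907% of line 5 and 1.55% of line 8, above 0.678% of line A and 0.0125% of line B. The 5' overhangs of 7 nt at 144 nt, of 6 nt at 160 nt and of 5 nt at 161 nt were listed in neither control. They held 0.367% and 0.922%, 0.886% and 0.243%, and 0.897% and 0.289% in lines 5 and 8.

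**Figure D4:**
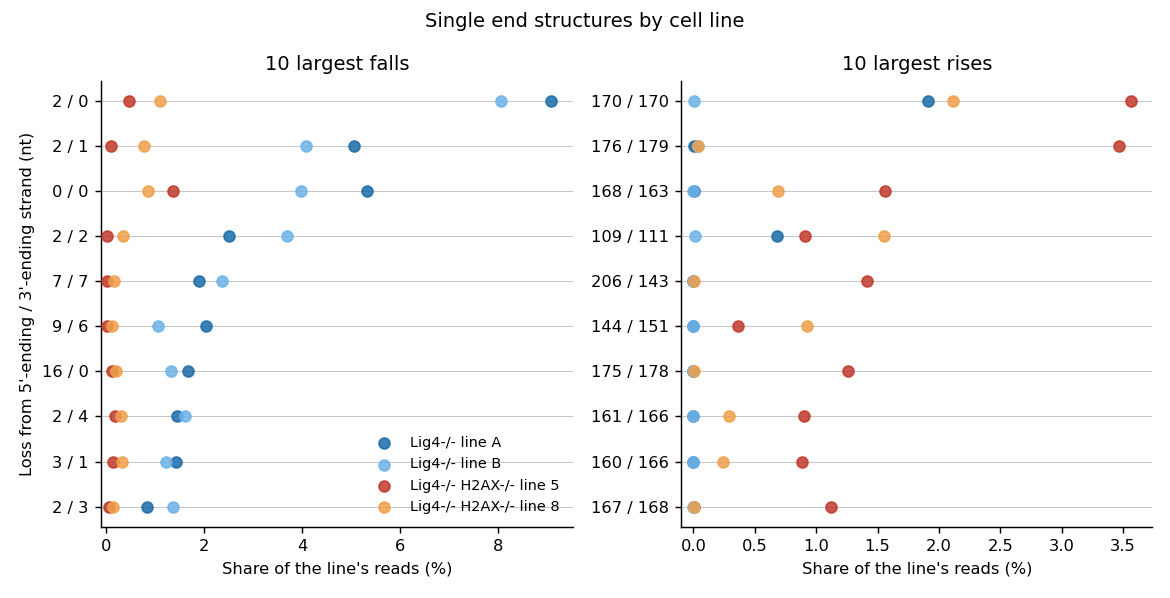
Share of reads (%) of the 10 structures with the largest falls (left) and the 10 with the largest rises (right) among structures whose genotypes did not overlap, with 1 point per cell line and each structure named by the loss (nt) from its 5'-ending and 3'-ending strand. On the left the points of lines A and B stand apart from those of lines 5 and 8. On the right the H2AX-deficient points are spread widely and several rises rest on line 5.

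Several leading structures belonged to a single H2AX-deficient line. A 3-nt 5' overhang at 176 nt held 3.47% of line 5 and 0.0370% of line 8, close to the 0.0367% of line B. A 3-nt 3' overhang at 180 nt held 3.25% of line 5, and a 12-nt 3' overhang at 167 nt held 1.67%, and neither was listed in line 8. A 63-nt 3' overhang at 206 nt, at the far limit of the window, held 1.42% of line 5 and 0.00823% of line 8. Line 8 had its own: 1.81% of its reads were a 2-nt 5' overhang at 169 nt and 1.18% a 21-nt 5' overhang at 165 nt, and neither was listed in line 5.

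Some positions where the 5'-ending strand stopped were high in both H2AX-deficient lines. A stop at 153 nt held 2.70% and 1.74% of reads in lines 5 and 8 against 0.00272% and 0.00156% in lines A and B. A stop at 164 nt held 2.22% and 3.22% against 0.642% and 0.206%. Both were separated, over all reads and among resected ends. Positions were named for their high rank in 1 or more of these lines, so this describes them and tests nothing. The stop at 170 nt held 3.57% and 3.37% of all reads in lines 5 and 8 and 1.92% and 1.68% in lines A and B. Among resected ends it held 3.72% and 3.63% against 3.42% and 2.91%, which did not separate the genotypes, so the preference for that position was present in controls too. Positions 169 and 171 nt, with 5.25% and 2.75%, were high in line 8, and position 180 nt, with 3.30%, in line 5. By contrast the control positions at 10, 11 and 14 nt held between 1.57% and 2.83% of reads in lines A and B and between 0.227% and 0.332% in lines 5 and 8.

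The H2AX-deficient lines resembled each other less than the controls did. The overlap of 2 tables was taken as the sum, over structures, of the smaller of their shares. It was 56.5% for lines A and B, 15.9% for lines 5 and 8, and 10.5% to 16.1% for pairs that mix genotypes. Restricted to resected ends it was 35.9% for A and B and 14.1% for 5 and 8. Restricted to ends near the break it was 84.3% for A and B and 52.3% for 5 and 8. There line 8 overlapped lines A and B by 78.8% and 75.7%, more than it overlapped line 5. Line 5 overlapped each control by 45.97% or less, below its overlap with line 8. By 5'-strand position of resected ends, regardless of the other strand, the overlap cannot be smaller than by structure, and it was 64.3% for A and B, 50.7% for 5 and 8, and 31.3% to 39.3% for mixed pairs. Of the 20 most used positions, 13 were shared by A and B, 9 by 5 and 8, and 1 to 6 by mixed pairs. Lines 5 and 8 were sequenced in different run sets and at lower depth, and the part of either in this was not tested.

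Reads were spread over more structures without H2AX. The 10 most abundant structures held 32.3% and 28.8% of reads in lines A and B and 20.7% and 13.2% in lines 5 and 8, a gap of 8.08 points against 7.54 within genotypes. With the 30 most abundant the values were 48.4%, 45.04%, 40.2% and 27.4%, and lines 5 and 8 then differed by 12.8 points, more than the 4.85 points between genotypes. It took 33 and 41 structures to reach 50% of the reads of lines A and B and 44 and 88 for lines 5 and 8. The number of structures expected at a common 72923 reads was 682, 678, 588 and 700, so the list itself was not longer in both H2AX-deficient lines.

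The same lines were also assayed at a RAG break at Jk1 (gene Igkj1), a joining segment of the immunoglobulin kappa light chain locus, which asks whether the effect of H2AX loss is alike at another site. The rise in the resected share was 37.6 points at the substrate and 42.4 points at Jk1, and the site difference did not separate the genotypes. That comparison leaned on line A, with 32.4% of Jk1 reads resected, lower than the 54.4% of line B. Without line A the site difference was 5.20 points and without line B it was -14.95 points. Each of these passed with 1 control line, where the 20.1 points between lines A and B in this difference did not enter.

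Some overhang classes differed between the sites when all ends were counted. The 5' overhang share was higher without H2AX by 13.8 points at the substrate and by 30.97 points at Jk1, where lines 5 and 8 had 52.3% and 56.1% and lines A and B 20.4% and 26.03%. With resected and other ends together, lines 5 and 8 had 19.5 and 14.5 points fewer 5' overhangs at the substrate than at Jk1, and the controls differed between the sites by -0.899 and 1.28 points. The site difference was separated, with a gap of 13.6 points against 5.04 within genotypes. Among resected ends the controls too had fewer 5' overhangs at the substrate, with differences of -13.1 and -5.84 points against -24.7 and -18.6 points in lines 5 and 8. There the site difference of -12.2 points did not pass, with a gap of 5.55 points against 7.24. For 5' overhangs of 5 nt or more the effect was 4.79 points at the substrate and 15.7 points at Jk1, and for 3' overhangs of 1 to 4 nt it was -16.9 and -28.4 points, both separated. With each structure counted once, or without the 10 most abundant structures, the site difference in all 5' overhangs was -3.57 or -5.75 points and that in short 3' overhangs 4.46 or 2.66 points, and none of these 4 passed. For 5' overhangs of 5 nt or more the site difference passed under both settings.

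**Figure D5:**
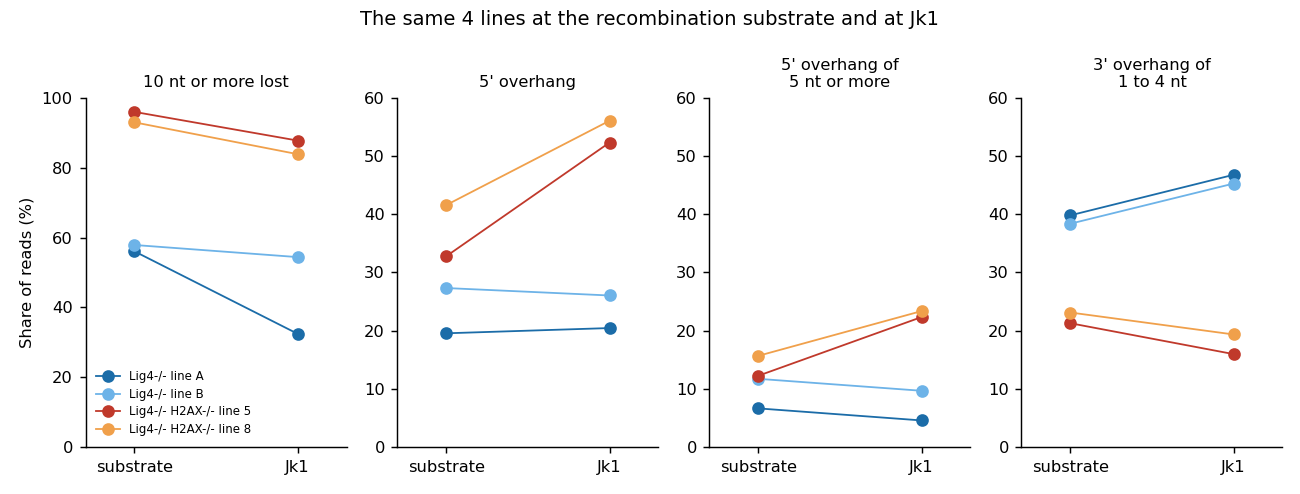
Share of reads (%) resected, with a 5' overhang, with a 5' overhang of 5 nt or more and with a 3' overhang of 1 to 4 nt, in the same 4 cell lines at the substrate and at Jk1, with 1 line joining the values of each cell line. The vertical axis ends at 100% in the first panel and at 60% in the others. In both 5' overhang panels the H2AX-deficient values are higher at Jk1 than at the substrate, and those of lines A and B are nearly level.

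The window also differed between the sites, since 5'-strand losses reached at most 181 nt at Jk1. Among resected ends, losses of 150 nt or more held 40.8% and 53.9% in lines 5 and 8 at the substrate and 7.94% and 15.4% at Jk1, which cannot be set against each other over unequal windows. The intact 3'-ending strand on resected ends was found mainly at the substrate in the controls: it held 3.39% and 2.64% there and 0.144% and 0.00483% at Jk1, and without H2AX its mean fell by 2.85 points at the substrate and by 0.0441 points at Jk1. This site difference was separated by reads and did not pass with each structure counted once (-0.502 points) or without the 10 most abundant structures (-0.177 points).

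Cells lacking ligase IV and 53BP1 (gene Trp53bp1), a damage response protein that acts downstream of H2AX, were assayed at the same substrate as lines B (CJ 6) and C. The title of 1 library of line C also names H2AX-deficient line 5, and line C was sequenced in run set 6. By its label that library is mixed with sequences of a distal substrate PCR, to be pulled out by a specific primer. The titles of line C carry the tag shNT and give no time, whereas those of line B give 48 h and lack the tag. Resected ends held 96.3% and 97.5% of reads there and did not separate from the 96.0% and 93.0% of lines 5 and 8. Ends with 100 nt or more lost were more frequent without 53BP1, at 84.3% and 86.5% against 68.6% and 75.4%, a gap of 8.86 points against 6.78. That difference kept its direction but did not pass with each structure counted once (-20.7 points) or without the 10 most abundant structures (-14.2 points).

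The clearer contrast was in the 5' overhangs. Those of 5 nt or more held 37.5% and 33.9% of reads in 53BP1-deficient lines B and C and 12.2% and 15.7% in H2AX-deficient lines 5 and 8, a gap of 18.3 points against 3.57 within genotypes. Those of 10 to 19 nt held 12.5% and 7.71% against 2.16% and 2.38%. Strand ends lay within 4 nt of each other in 39.7% and 30.9% of all reads without 53BP1 and in 51.1% and 62.0% without H2AX. That difference of 21.2 points passed, with a gap of 11.4 points against 10.9. With each structure counted once it was 15.4 points and did not pass, with a gap of 6.70 points against 9.13. Without each table's 10 most abundant structures the difference in 5' overhangs of 5 nt or more was -16.6 points, and its gap of 6.13 points was smaller than the 17.9 points separating lines of a genotype.

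Fisher's exact test, two-sided, was also run on the reads of each H2AX-deficient table against each control table for every share. Of 228 pairs, 222 had a Benjamini-Hochberg adjusted p under 0.05, including pairs for measures on which the lines of the genotypes overlapped. The test compares pools of reads, and at this depth it separates nearly any 2 tables. Among the 6 others were the shares of 3' overhangs of 5 to 9 nt in resected ends, which held 11.94% in line B, 11.84% in line 5 (adjusted p = 0.567, Fisher's exact test) and 11.93% in line 8 (adjusted p = 0.954, same exact test).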

How the data were processed

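Genomic DNA went through HCoDES and paired-end MiSeq sequencing, per the labels' protocols. The authors deposited a table per group with a read count, a position and an overhang for each end structure. Counts are not normalised and pool the libraries of a group, and a copy of the line 5 table with the same values was left out. Aligner, filters and genome build are not stated in the sources used. No substrate sequence was used here, so no coordinates or sequences are printed. The position was read as the end of the 5'-ending strand and the position minus the overhang as the end of the 3'-ending strand. KpnI is known to leave a 3' overhang and its main structure is listed with the overhang 4, so positive values were taken as 3' overhangs. Losses count from position 2, and with another origin all losses shift alike.

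Groups were taken from the labels. The computation used scipy 1.17.1, numpy 2.4.6 and pandas 2.3.3 under Python 3.11.15 and gave each share an exact Clopper-Pearson 95% interval for counting error. Plots were drawn with matplotlib 3.10.9. Lines were averaged with equal weight and compared by the gap rule stated in the report. The members, measures and lists were chosen with earlier results of these data known. Structures named are the 5 most abundant of each table, the 10 largest rises and falls among structures whose genotypes do not overlap, and those with an intact 3'-ending strand and 0 to 6 nt lost from the other. Positions named are the 5 most used of resected ends in each table. The calculation was tested on simulated data. Alternatives counted each structure once, required 10 reads, left out abundant structures or a cell line, and moved each threshold.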

Additional observations from a re-analysis of the deposited data

How the results depend on the processing

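Of 252 alternative values, 204 kept their direction and their side of the gap rule, or stayed within the stated range for counts and medians, and 16 changed direction. The resected share, the share with 100 nt or more lost and the share lost on both strands stayed separated under every alternative run for them with 2 lines per genotype. These included other thresholds, the loss of the 3'-ending strand and other origins. With each line left out in turn, the 3 differences kept their direction. With each structure counted once, the difference between genotypes was 53.5 nt for the median loss, 0.0353 points for blunt ends, -2.85 points for 3' overhangs of 10 nt or more, -3.24 points for 5' overhangs of 5 nt or more, 0.306 points for the 10 most abundant structures, 0.0306 points for ends without loss, 1.38 and 0.617 points for 3' overhangs of 1 to 4 nt over all and over resected ends, and -2.03 points for overhangs of 20 nt or more. All of these but the median loss ran opposite to the main difference. For the 10 most abundant structures and for ends without loss this setting only counts how long the list is. Without the 10 most abundant structures, the difference was 102.5 nt for the median, -1.65 points for blunt ends, 1.35 points for ends without loss, 0.358 points for a loss of 2 nt and -16.6 points for 5' overhangs of 5 nt or more against 53BP1-deficient lines. That setting removes the end without loss from both controls.

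With 1 nt of difference called blunt, the 3' overhang share differed by 0.553 points and the 5' overhang share by 12.6 points, the latter then passing. Counted from 3 nt, long 5' overhangs differed by 9.50 points and passed. The 30 most abundant structures differed by -12.9 points and did not pass. With each line left out in turn, where the lone line is assumed to vary like the others, the difference ran from -12.4 to 0.0427 points for 3' overhangs, 9.38 to 18.2 for 5' overhangs, -15.6 to -1.62 and 7.35 to 17.3 for the same among resected ends, 1.12 to 14.97 for 3' overhangs of 10 nt or more and 2.25 to 7.33 for 5' overhangs of 5 nt or more. Higher structures numbered 75 to 263 and lower ones 164 to 211, and without line 5 or line 8 the higher count was 263 or 180. At a minimum share of 0.5% the counts were 21 and 36, with fewer structures tested. The site difference in the resected share ran from -14.95 to 5.20 points over lines left out, and was 1.41 points with structures counted once, 1.97 without the 10 most abundant and 3.11 with a threshold of 20 nt. The cause of these changes was not tested. No paired analysis was possible because each table pools its libraries and the lines of the genotypes share no number.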
